A study of Mus musculus with 6 samples.

Results

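Genes named for the cell cycle, DNA replication and the histones were examined in mouse livers after ischemia-reperfusion (I/R). They were taken by name from the protein-coding genes of the deposited table. The name families were the cyclins with a letter from a, b, d, e, f or g and a digit, cyclin-dependent kinases (CDK) and their inhibitors, Cdc, Cdca, Mcm, Cenp, Bub1, Aurk, polo-like kinases, E2f, Gadd45, Btg, histones, replicative polymerases, Rad5, Brca and Fanc, together with Top2a and Mki67. The Cdc42 family of cytoskeletal regulators, 2 rows, was left out. This gave 28 members of 3201 listed genes, 2441 of which are protein coding.

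RNA-seq was performed on whole livers of 2 groups of 3 mice, Fgf18 f/f and Fgf18△HSC, all subjected to 1 h of partial warm ischemia and 6 h of reperfusion. The Fgf18△HSC mice carried floxed Fgf18 and a GFAP-Cre transgene, which the study used to delete Fgf18, a secreted fibroblast growth factor, in hepatic stellate cells (HSCs). For the Fgf18 f/f livers the genotype label states only IR, so that the floxed genotype comes from the study's methods, as does the C57BL/6 background shared by both groups. The study was done in male mice. The question was how livers that lack Fgf18 in stellate cells differ after the same I/R, and no sham livers were analysed here.

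Cells that enter the cycle raise cyclins, which activate CDKs. CDKs inactivate the retinoblastoma proteins and free the activating E2F factors, which switch on replication and mitosis genes. CDK inhibitors and the Gadd45 and Plk3 stress proteins act against this progression. The adult liver is almost quiescent, and hepatocytes re-enter the cycle after injury or loss of tissue, reaching S phase later than the 6 h examined here. Replication-dependent histones are made in S phase from mRNAs that end in a conserved stem-loop instead of a poly(A) tail.

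The levels are TPM, a read count scaled by gene length and library depth so that the genes of a library share one total. The groups were compared with limma on log2(TPM + 0.1) over all 3201 genes, and calls required that the Benjamini-Hochberg adjusted p was under 0.05 and the log2 fold change above 1 in size. A positive log2 fold change means a higher level in Fgf18△HSC livers, and the fold of a low gene is understated on this scale. The authors had kept only genes with an absolute log2 fold change of at least 1 and an unadjusted p under 0.05 in their own comparison of these same 6 livers. A member is therefore in the table because it differed, and its test here is no independent evidence that it did. The share of all cell cycle genes that differed cannot be derived from such a table.

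In Fgf18△HSC livers, 18 of the 28 members were higher and 10 lower. By limma, 15 were called higher and 9 lower, and 4 were not called, each with a log2 fold change under 1 in size. Among all listed genes, 71.7% were called, 41.6% as higher and 30.0% as lower. In every member the 3 livers of one group were all above the 3 of the other, as they were in 96.3% of all listed genes (62.0% higher in Fgf18△HSC livers and 34.3% lower). The median log2 fold change was 1.01 over the members and 0.88 over all listed genes, and 64.3% of the members and 65.1% of all listed genes were higher. The split by direction depended on the scaling. When each liver was divided by the median ratio of its listed genes, the median log2 fold change of all genes moved by -0.74, and 4 members were called higher and 10 lower. The higher calls lost were those of Ccnd2, E2f2, Cdc25b, Cenpc1, Plk4, Hist1h1d, Hist1h2ac, Hist1h2be, Hist1h4h, Cdk2ap2 and Cdkn2aip. That scaling rests on genes selected for a difference, and under it 11% of all listed genes were called higher and 34.8% lower.

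**Figure D1:**
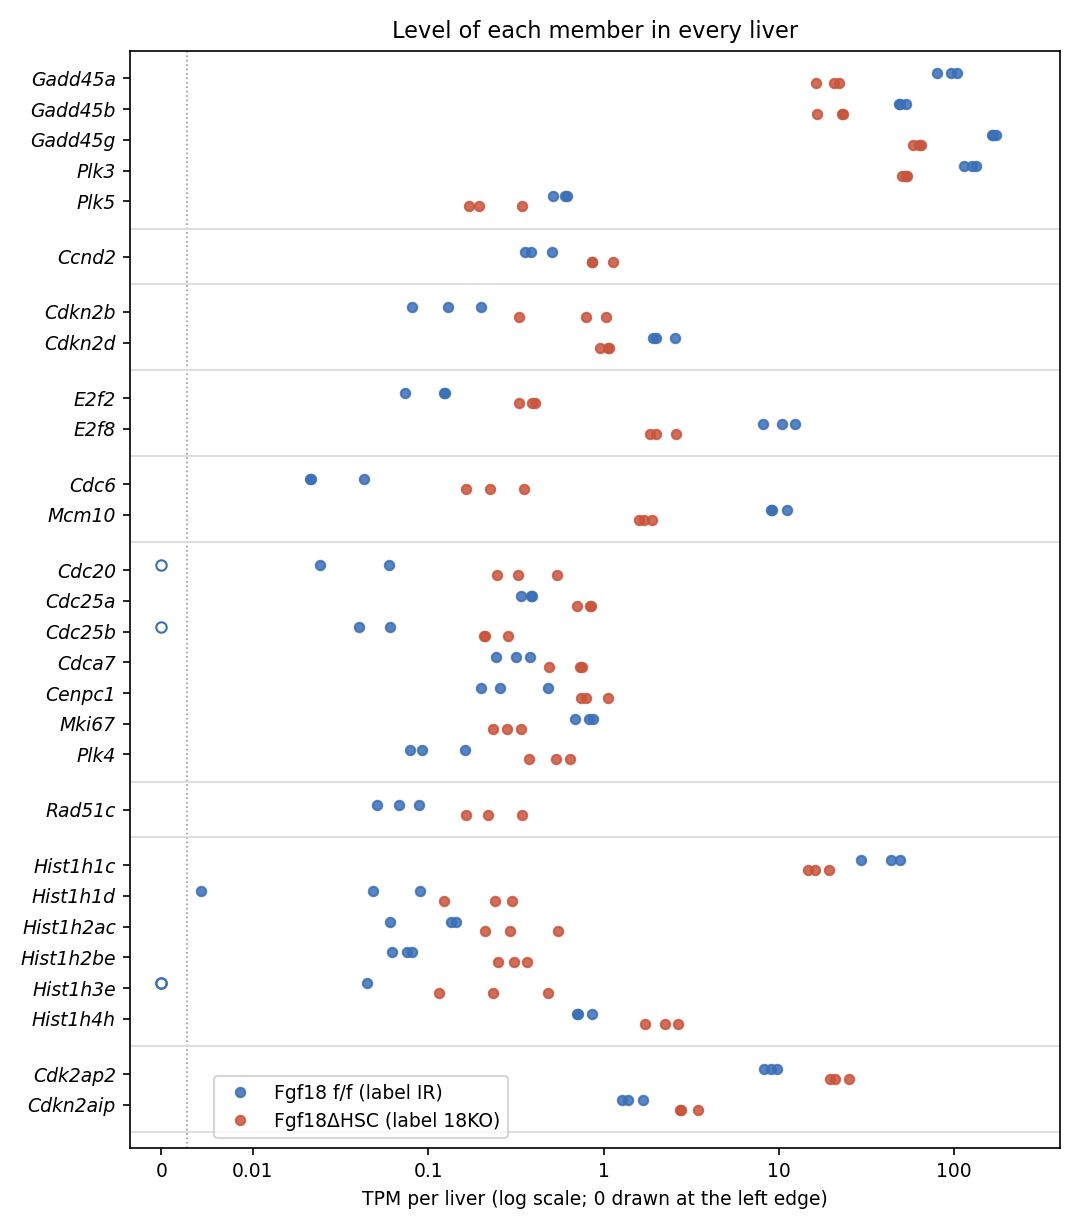
Each point is the TPM of one member (rows, grouped by role) in one liver, on a log axis with 0 drawn as an open circle at the left edge; blue stands for the 3 Fgf18 f/f livers and red for the 3 Fgf18△HSC livers. Gadd45a, Gadd45b, Gadd45g, Plk3 and Hist1h1c lie at the right and are lower in Fgf18△HSC livers, while most members that are higher there lie below 1 TPM.

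All 5 stress and growth arrest genes fell in Fgf18△HSC livers, and 4 of them, Gadd45g, Plk3, Gadd45a and Gadd45b, had the highest mean TPM of all members. These 4 had a mean above 10 TPM, where only 14.6% of the 467 listed genes were higher and most fell too. The other, Plk5, had a mean under 1 TPM, where 86.0% of listed genes were higher. Gadd45a, Gadd45b and Gadd45g encode small stress-induced proteins that bind cyclin-CDK complexes, the replication clamp and stress kinases and take part in growth arrest. Gadd45a (ENSMUSG00000036390, chromosome 6 of GRCm38, 67035096 to 67037457) was at 103, 95.4 and 79.9 TPM in Fgf18 f/f livers, against 22.2, 16.2 and 20.7 TPM in Fgf18△HSC livers. The lowest Fgf18 f/f liver was thus far above the highest Fgf18△HSC liver. The means were 92.9 ± 11.9 and 19.7 ± 3.13 TPM (SD, n = 3 livers each), which is -2.24 on the log2 scale (standard error 0.15, adjusted p = 1.96e-05).

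Gadd45b (ENSMUSG00000015312, chromosome 10, 80930073 to 80932204) was at 53.4, 49.3 and 48.5 TPM in Fgf18 f/f livers, against 22.9, 16.4 and 23.2 TPM in Fgf18△HSC livers. The Fgf18 f/f livers lay close together, and among the Fgf18△HSC livers the second was the low one, as for Gadd45a. Gadd45b fell on the log2 scale by 1.29 (standard error 0.15, adjusted p = 0.000143). Gadd45g (ENSMUSG00000021453, chromosome 13, 51846678 to 51848468) had the highest levels of any member, 172, 167 and 165 TPM against 62.7, 65.0 and 58.3 TPM. Its spread within each group was small, with means of 168 ± 3.82 and 62.0 ± 3.36 TPM (SD, n = 3 livers each), and it fell on the log2 scale by 1.44 (standard error 0.10, adjusted p = 1.81e-05). Summed, the 3 Gadd45 genes reached 329, 312 and 293 TPM in Fgf18 f/f livers, against 108, 97.5 and 102 TPM in Fgf18△HSC livers, a ratio of the means of 0.329.

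Plk3 (ENSMUSG00000028680, chromosome 4, 117128655 to 117133963), a stress-responsive polo-like kinase, was at 133, 113 and 126 TPM in Fgf18 f/f livers, against 54.1, 50.5 and 53.2 TPM in Fgf18△HSC livers. All Fgf18△HSC livers were within a few TPM of each other and below every Fgf18 f/f liver. Plk3 fell on the log2 scale by 1.23 (standard error 0.11, adjusted p = 4.15e-05). Plk5, a polo-like kinase family member linked to growth arrest, had low levels of 0.516 to 0.620 TPM and 0.170 to 0.342 TPM, on 29 to 37 and 8 to 19 reads a liver. It fell on the log2 scale by 1.05 (standard error 0.24, adjusted p = 0.00383). Its call was lost without the second Fgf18△HSC liver, at -0.97, and without the third, at -0.91. The 5 genes held 84.2 to 86.4% of the summed TPM of all members in Fgf18 f/f livers, against 72.3 to 74.7% in Fgf18△HSC livers. The counting of the Gadd45a reads may include those of a listed antisense transcript, E230016M11Rik, which shares 337 of the 1764 exon bases of Gadd45a, since the strand setting of the counting is not given in the sources used here.

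Promoters were read from the RefSeq table for GRCm38.p6, from 250 bases before to 50 bases after each start, and 21 of the 28 members had one. Ccnd2 and the 6 histone genes had none there. Among the promoters of the stress genes, those of Gadd45b and Gadd45g held an E-box with the letters CACGTG, a motif bound by Myc family and other basic helix-loop-helix factors, which 8.09% of 27025 genes also held. The 2 windows are shown because these are the members with the E-box, 9.52% of the 21 that had a promoter. The capitals mark the motif, positions count from the start site, and each window reads 5′ to 3′ on the strand of the gene. A match of letters is a description and not a site of binding.
Gadd45b (chr10:80929890-80929927, plus strand, first capital at -185 from the start): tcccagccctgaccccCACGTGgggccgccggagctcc
Gadd45g (chr13:51846517-51846554, plus strand, first capital at -142 from the start): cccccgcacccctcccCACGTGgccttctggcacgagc

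Of the cyclins named Ccn with a letter from a, b, d, e, f or g and a digit, only Ccnd2 was listed, and no cyclin-dependent kinase named Cdk with a digit was. The cyclins Ccnf and Ccnl1 are listed but fall outside these names. They had a mean of 3.08 and 33.8 TPM over the 6 livers and log2 fold changes of 1.46 and -1.09, and they were named after their values were seen. Ccnd2 (ENSMUSG00000000184, chromosome 6, 127125162 to 127152193) encodes cyclin D2, a partner of the G1 kinases. It was at 0.357 to 0.507 TPM in Fgf18 f/f livers, against 0.856 to 1.13 TPM in Fgf18△HSC livers, and the log2 fold change was 1.02 (standard error 0.21, adjusted p = 0.00225). The value lay so near the limit of 1 that the call was lost without the first or second Fgf18 f/f liver or the third Fgf18△HSC liver, with a log2 fold change of 0.90 at the lowest.

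The 2 listed CDK inhibitors differed in opposite directions, and only Cdkn2b was called. Both proteins, p15 for Cdkn2b and p19 for Cdkn2d, bind the kinases of the D-type cyclins and hold cells in G1. Cdkn2d (ENSMUSG00000096472, chromosome 9, 21288410 to 21291407) was at 2.56, 2.0 and 1.9 TPM in Fgf18 f/f livers, against 1.07, 0.956 and 1.06 TPM in Fgf18△HSC livers. The groups did not overlap, but the log2 fold change of -0.99 (standard error 0.17, adjusted p = 0.00100) was just short of the limit, and Cdkn2d was not called. Cdkn2b (ENSMUSG00000073802, chromosome 4, 89306299 to 89311039) was higher in Fgf18△HSC livers, at 0.329 to 1.04 TPM against 0.0804 to 0.199 TPM. This gave a log2 fold change of 1.72 (standard error 0.38, adjusted p = 0.00304). The second Fgf18△HSC liver, at about 7 reads against 22 and 30 in the others, was near the Fgf18 f/f livers, which had about 3 to 5 reads.

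Of the E2F factors, E2f8 fell and E2f2 rose. E2f8 is an atypical E2F that represses E2F target genes and is abundant in liver, where it takes part in making polyploid hepatocytes. E2f8 (ENSMUSG00000046179, chromosome 7, 48866429 to 48881596) was at 12.4, 10.4 and 8.12 TPM in Fgf18 f/f livers, against 2.595, 1.996 and 1.829 TPM in Fgf18△HSC livers. Even the lowest Fgf18 f/f liver stood well above all Fgf18△HSC livers. The means were 10.3 ± 2.16 and 2.14 ± 0.403 TPM (SD, n = 3 livers each), which is -2.21 on the log2 scale (standard error 0.20, adjusted p = 4.94e-05). E2f2 (ENSMUSG00000018983, chromosome 4, 136172394 to 136196057), an activating E2F, rose from 0.0735 to 0.125 TPM to 0.331 to 0.405 TPM. The log2 fold change was 1.20 (standard error 0.20, adjusted p = 0.000809), on 8 to 16 reads a liver in one group and 29 to 41 in the other. The ratio of E2f2 to E2f8 within a liver, a comparison chosen after the values were seen, was 0.00985, 0.00706 and 0.0154 in Fgf18 f/f livers, against 0.156, 0.195 and 0.181 in Fgf18△HSC livers. E2f8 remained the more abundant of the pair in every liver.

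The replication genes gave the largest fall of any member and a rise at very low levels. Mcm10 joins the replicative helicase as origins fire and is needed to begin DNA synthesis. Mcm10 (ENSMUSG00000026669, chromosome 2, 4989714 to 5012791) was at 9.02, 9.18 and 11.1 TPM in Fgf18 f/f livers, against 1.88, 1.6 and 1.7 TPM in Fgf18△HSC livers. The Fgf18△HSC livers were close together and far under the others. The means were 9.76 ± 1.14 and 1.73 ± 0.143 TPM (SD, n = 3 livers each), which is -2.43 on the log2 scale (standard error 0.14, adjusted p = 1.33e-05).

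Cdc6 (ENSMUSG00000017499, chromosome 11, 98907801 to 98923940) helps load the helicase Mcm2 to Mcm7 onto origins in G1. It was at 0.0212 to 0.0429 TPM in Fgf18 f/f livers, on 2 to 5 reads, and at 0.164 to 0.35 TPM in Fgf18△HSC livers, on 17 to 38 reads. Cdc6 rose by 1.40 on the log2 scale (standard error 0.23, adjusted p = 0.000721). The ratio of the summed reads, scaled for depth, was 8.77 with a 95% interval of 4.51 to 19.1, which covers counting error only. Cdc6 was far below Mcm10 in all livers, a pair also compared after the values were seen. Their ratio was at most 0.00467 in Fgf18 f/f livers and 0.0969 to 0.186 in Fgf18△HSC livers.

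The letters TTTCCCGC or TTTGGCGC on either strand, forms of the E2F motif, were found in the promoters of 5 of the 21 members that had one, and in 1.80% of the 27025 genes of the table. The 5 members were E2f2, Cdc6, Cdc25a, Cdca7 and Rad51c. All were among the 12 members with a promoter that were higher in Fgf18△HSC livers. None of the 9 lower members with a promoter held the full letters. The promoter of Mcm10, a lower member, ends with the letters TTTGGCG, so whether a full match follows cannot be told. E2f2 and Rad51c had more promoters searched than the other members. Whether these letters go with direction was not tested. The windows are shown because E2F factors are known to regulate genes of these families. Capitals mark the motif as it reads on the strand of the gene, where GCGGGAAA is the complement of TTTCCCGC.
E2f2 (chr4:136172297-136172323, plus strand, first capital at +40 from the start): atttggcggcatatagTTTGGCGCtaa
Cdc6 (chr11:98907997-98908036, plus strand, first capital at -138 from the start): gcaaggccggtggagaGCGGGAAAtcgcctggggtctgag
Cdc25a (chr9:109875496-109875535, plus strand, first capital at -67 from the start): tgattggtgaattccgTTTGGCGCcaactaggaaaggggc
Cdca7 (chr2:72476132-72476171, plus strand, first capital at -71 from the start): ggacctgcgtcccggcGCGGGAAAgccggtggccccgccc
Rad51c (chr11:87404936-87404975, minus strand, first capital at -5 from the start): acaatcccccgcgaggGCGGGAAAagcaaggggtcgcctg

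The letters CCAAT, on either strand, were in the promoters of 14 of the 21 members, 66.7%, and of 41.1% of all genes. They were in 8 of the 9 lower and 6 of the 12 higher members. The letters TTTGAA of the cell cycle homology region, an element of mitosis genes, were in 5 members, 23.8%, and 20.2% of all genes, and TGACGTCA of the cyclic AMP response element was in Cdkn2b and Rad51c and 2.03% of all genes. No match overlapped another of these motifs. The promoters of E2f8 and Mcm10 are given because these genes had, with Gadd45a, the largest falls of any member, with the CCAAT letters and, in E2f8, those of the homology region in capitals on either strand.
E2f8 (chr7:48881547-48881846, minus strand): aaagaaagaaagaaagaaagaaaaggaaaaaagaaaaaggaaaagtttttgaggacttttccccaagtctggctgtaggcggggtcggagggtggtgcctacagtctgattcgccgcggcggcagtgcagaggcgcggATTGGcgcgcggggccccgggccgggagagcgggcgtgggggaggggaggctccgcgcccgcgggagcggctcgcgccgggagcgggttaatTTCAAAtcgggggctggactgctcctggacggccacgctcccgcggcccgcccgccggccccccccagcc
Mcm10 (chr2:5012742-5013041, minus strand): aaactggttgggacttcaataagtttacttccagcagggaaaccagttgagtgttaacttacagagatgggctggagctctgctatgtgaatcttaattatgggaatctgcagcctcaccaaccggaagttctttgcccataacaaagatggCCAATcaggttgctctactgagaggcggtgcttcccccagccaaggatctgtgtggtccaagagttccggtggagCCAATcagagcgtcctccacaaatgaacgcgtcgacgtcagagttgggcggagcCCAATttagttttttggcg

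**Figure D2:**
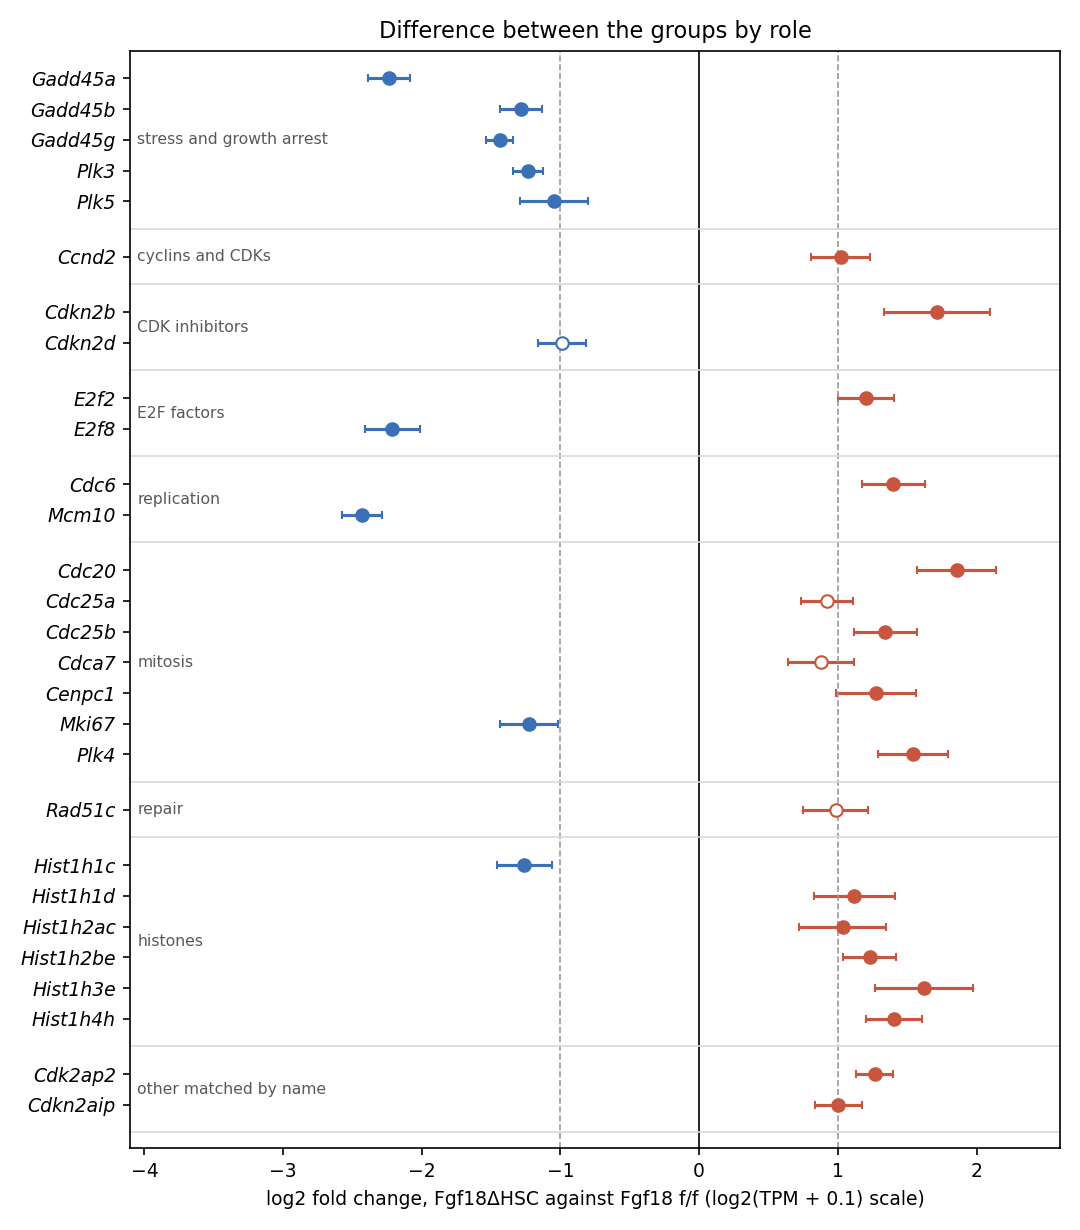
The log2 fold change of each member (Fgf18△HSC against Fgf18 f/f livers, on the log2(TPM + 0.1) scale) is drawn with its standard error and grouped by role; filled points were called, open points were not, and dashed lines mark the limit of 1 in either direction. The 5 stress and growth arrest genes lie on the left, and the E2F, replication, mitosis and histone groups each hold members on both sides.

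Among the 7 genes grouped under mitosis by their names, not all of which act only in mitosis, 4 rose, 1 fell and 2 were not called. Mki67 and Cdc20 were the only 2 of 21 proliferation markers that were listed, and they differed in opposite directions. Mki67 (ENSMUSG00000031004, chromosome 7, 135689784 to 135716361) encodes the Ki-67 protein that coats mitotic chromosomes and marks cycling cells. It was at 0.828, 0.874 and 0.690 TPM in Fgf18 f/f livers, against 0.283, 0.234 and 0.337 TPM in Fgf18△HSC livers. All 3 Fgf18△HSC livers were below the Fgf18 f/f livers, on 36 to 67 against 125 to 223 reads. Mki67 fell on the log2 scale by 1.23 (standard error 0.21, adjusted p = 0.000834).

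Cdc20 (ENSMUSG00000006398, chromosome 4, 118432901 to 118437352), an activator of the anaphase-promoting complex, was at 0, 0.0240 and 0.0594 TPM in Fgf18 f/f livers, against 0.542, 0.245 and 0.325 TPM in Fgf18△HSC livers. These values are 0, 1 and 2 reads against 21, 7 and 12 reads, so that no Fgf18 f/f liver passed the floor of 3 reads. On the log2(TPM + 0.1) scale Cdc20 rose by 1.86 (standard error 0.28, adjusted p = 0.000505). The ratio of the reads, scaled for depth, was 16.02, with a 95% interval of 5.10 to 81.0. Within a liver, Cdc20 was at most 0.0862 of the level of Mki67 in Fgf18 f/f livers and was at 1.92, 1.05 and 0.965 of it in Fgf18△HSC livers, a pair compared after the values were seen.

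The mitosis group also held Plk4, the kinase that starts centriole duplication. Plk4 rose from 0.0786 to 0.162 TPM to 0.376 to 0.640 TPM (log2 fold change 1.54, standard error 0.25, adjusted p = 0.00072). Cenpc1, a protein of the inner kinetochore, rose from 0.199 to 0.483 TPM to 0.745 to 1.06 TPM (log2 fold change 1.27, standard error 0.29, adjusted p = 0.0034). Cdc25b, a phosphatase that activates mitotic CDK, had 0 to 5 reads in Fgf18 f/f livers, against 12 to 21 in Fgf18△HSC livers (log2 fold change 1.34, standard error 0.22, adjusted p = 0.000805). These 3 genes stayed near or under 1 TPM in every liver. Cdc25a, the phosphatase of the G1 and S phase CDKs, was at 0.339 to 0.392 TPM and 0.709 to 0.848 TPM, and Cdca7, an E2F and Myc target that works with the remodeller Hells, was at 0.243 to 0.378 TPM and 0.491 to 0.758 TPM. Both missed the fold limit, with log2 fold changes of 0.92 (adjusted p = 0.00204) and 0.88 (adjusted p = 0.00779). Rad51c, a homologous recombination protein and the only listed repair member, was not called either, at 0.0512 to 0.0886 TPM and 0.164 to 0.341 TPM (log2 fold change 0.98, standard error 0.23, adjusted p = 0.00411).

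The 6 histone genes lie in the large cluster on chromosome 13. Hist1h1c fell and the other 5 rose, while 65.1% of all listed genes were higher. Hist1h1c (ENSMUSG00000036181, 23738808 to 23740367) encodes linker histone H1.2, which cells also make outside S phase. It was at 48.8, 43.4 and 29.5 TPM in Fgf18 f/f livers, against 19.2, 15.99 and 14.7 TPM in Fgf18△HSC livers. The third Fgf18 f/f liver was the lowest of its group and still above all Fgf18△HSC livers. The fall was -1.26 as a log2 fold change (standard error 0.20, adjusted p = 0.000604).

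Hist1h4h (ENSMUSG00000060981, 23531050 to 23531519), a gene for core histone H4, was at 0.715, 0.859 and 0.709 TPM in Fgf18 f/f livers, against 2.67, 2.23 and 1.72 TPM in Fgf18△HSC livers. The groups did not overlap, on 6 to 9 against 16 to 26 reads. The log2 fold change was 1.40 (standard error 0.20, adjusted p = 0.00038). Hist1h1d (linker histone H1.3), Hist1h2ac (H2A), Hist1h2be (H2B) and Hist1h3e (H3) were at 0 to 0.145 TPM in Fgf18 f/f livers, against 0.115 to 0.550 TPM in Fgf18△HSC livers. Their log2 fold changes were 1.12, 1.04, 1.23 and 1.62, with adjusted p-values of 0.00663, 0.0125, 0.000573 and 0.00285. The calls of Hist1h1d and Hist1h2ac were lost without the first Fgf18 f/f liver and without the third Fgf18△HSC liver. Hist1h3e had 1, 0 and 0 reads against 2, 3 and 8, a ratio of 15.6 with a 95% interval of 2.35 to 664.

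Hist1h1c made up 96.7 to 98.2% of the summed TPM of the histone members in Fgf18 f/f livers, against 81.4 to 84.4% in Fgf18△HSC livers. Without it, the sum of the other 5 was 0.901, 1.13 and 0.995 TPM in Fgf18 f/f livers, against 3.56, 3.17 and 3.36 TPM in Fgf18△HSC livers. Histone genes of the same type are similar copies, so a read may fit several of them. In addition, 496 exon bases of Hist1h2be also belong to Hist1h1e. Values of single histone genes are therefore uncertain.

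The libraries were prepared from mRNA, and most replication-dependent histone mRNA has no poly(A) tail. The stem-loop that ends such mRNAs was searched in the GENCODE M21 transcripts as the letters CTCTTTT, any base and AGAG. It was found in 5 of the 6 histone members, in 0 of the other 22 members, in 34 of 67 protein-coding genes named Hist with a digit (50.7%) and in 70 of 21901 protein-coding genes (0.32%). The windows are shown since they tell how a histone mRNA of each gene can end. Capitals mark the stem-loop letters. The windows of Hist1h1c, Hist1h1d, Hist1h2ac and Hist1h2be hold the same capitals, and that of Hist1h3e has another base at the free position.
Hist1h1c: ccaaaaggCTCTTTTCAGAGccaccact
Hist1h1d: tcaaacggCTCTTTTCAGAGccacccac
Hist1h2ac: cccaaaggCTCTTTTCAGAGcccccact
Hist1h2be: accaaaggCTCTTTTCAGAGccacccaa
Hist1h3e: caaaacggCTCTTTTAAGAGccacctcc

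The annotated transcripts run on past these letters, by 842 bases in Hist1h1c, 4886 in Hist1h1d, 2012 in Hist1h2ac, 1863 in Hist1h2be and 371 in Hist1h3e. The annotated transcript of Hist1h4h, of 470 bases, does not hold them. The table does not tell whether the reads came from transcripts that end at the stem-loop or from longer ones, and this was not tested.

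The last 2 members carry a cell cycle name through a binding partner. Cdk2ap2 (ENSMUSG00000024856, chromosome 19, 4097182 to 4099019), a CDK2-associated protein, was the only member above 10 TPM on average that rose. It was at 9.02, 8.26 and 9.74 TPM in Fgf18 f/f livers, against 19.6, 25.0 and 20.9 TPM in Fgf18△HSC livers, with no overlap. The rise was 1.26 on the log2 scale (standard error 0.13, adjusted p = 8.78e-05), and with rescaled livers it was 0.39 and not called (adjusted p = 0.0965). Cdkn2aip (ENSMUSG00000038069, chromosome 8, 47709344 to 47713932), which binds the p53 regulator ARF, was at 1.38, 1.27 and 1.67 TPM in Fgf18 f/f livers, against 3.46, 2.72 and 2.78 TPM in Fgf18△HSC livers. The log2 fold change, 1.004 (standard error 0.17, adjusted p = 0.000902), was barely past the limit, and the call was lost without the first Fgf18△HSC liver or without the first or the second Fgf18 f/f liver. The antisense gene E030037K01Rik shares 667 exon bases with Cdkn2aip.

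Direction went with level. Of the 17 members with a mean of at most 1 TPM over the 6 livers, 15 were higher in the Fgf18△HSC group, and 86.0% of the 1777 listed genes at this level were higher too. Between 1 and 10 TPM, 2 of 5 members were higher, and 50.8% of 957 genes. Above 10 TPM, 1 of 6 members was higher, Cdk2ap2, and 14.6% of 467 genes. Thus the members followed the table as a whole in this respect. In reads, 13 members had under 50 in every liver, 12 of them higher, and 8 had over 300 in at least 1 liver, 7 of them lower. The depth was such that a single read over 1 kb of exons equalled 0.0374 to 0.0555 TPM in Fgf18 f/f livers, against 0.0482 to 0.0655 TPM in Fgf18△HSC livers. The listed genes took 7.14 to 7.93% of all TPM in Fgf18 f/f livers, against 3.89 to 3.99% in Fgf18△HSC livers.

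**Figure D3:**
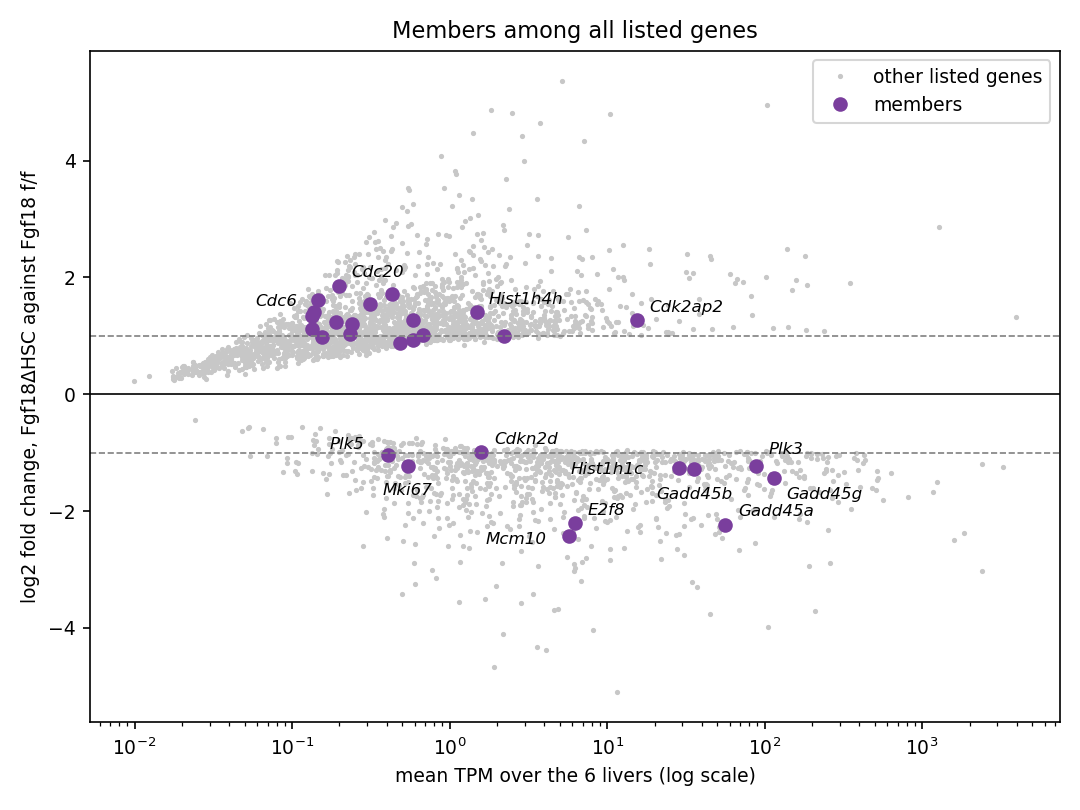
The log2 fold change of every listed gene (grey) and of the 28 members (purple) is plotted against the mean TPM over the 6 livers on a log axis, with dashed lines at the limit of 1. The highest members, from the Gadd45 genes to Hist1h1c, lie below 0 and most members under 1 TPM lie above it, as the grey points do.

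**Figure D4:**
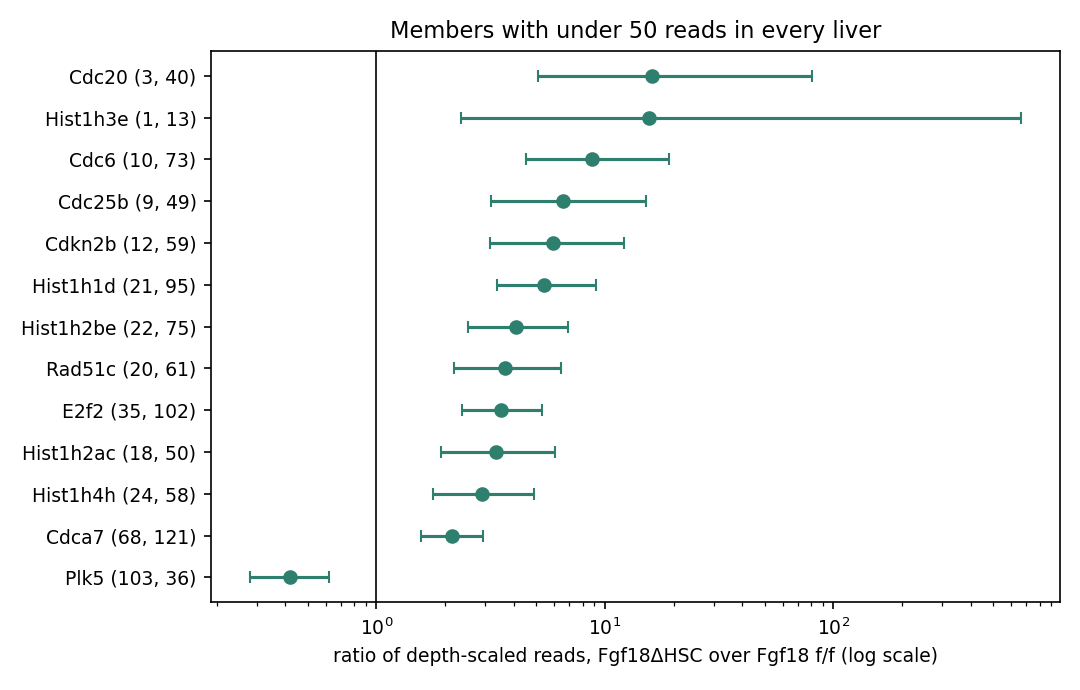
For the 13 members with under 50 reads in every liver, the point is the ratio of depth-scaled reads, Fgf18△HSC over Fgf18 f/f livers, on a log axis, and the bar its 95% counting interval; the summed reads of the 3 Fgf18 f/f and the 3 Fgf18△HSC livers stand in brackets. The interval of Hist1h3e, from 2.35 to 664, is the widest, and Plk5 is the only one of them below 1.

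The liver ranked highest or lowest in its group varied from member to member, and whether this differs from all listed genes was not tested. Among the 18 members that were higher in Fgf18△HSC livers, the first Fgf18△HSC liver was the highest of its group in 9, the second in 3 and the third in 6. Among the 10 lower members, the second Fgf18△HSC liver was the lowest of its group in 6, and the first Fgf18 f/f liver was the highest of its group in 7. Calls that were lost when a single liver was left out were those of Plk5, Ccnd2, Hist1h1d, Hist1h2ac and Cdkn2aip, whose log2 fold changes were between 1.004 and 1.12 in size. Leaving out 1 liver at a time gave 11 to 17 members called higher and 8 to 10 called lower. Of all listed genes, 37.6 to 43% were then called higher and 28.3 to 30.5% lower.

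Other genes of the cycle were counted from a list of 95 genes outside these name families, of which 18 were listed. By limma, 9 were called higher, 6 lower and 3 were not called, beside 41.6% and 30.0% of all genes, with a median log2 fold change of 1.01 against 0.88 over all listed genes. The licensing factor Cdt1, which loads the helicase together with Cdc6, rose from 0.460 to 0.557 TPM to 1.08 to 1.43 TPM, and its inhibitor Gmnn fell from 1.86 to 2.21 TPM to 0.724 to 0.790 TPM. The log2 fold changes were 1.20 (adjusted p = 0.000648) and -1.31 (adjusted p = 0.000166). Trp53, which encodes p53, rose from 2.596 to 3.02 TPM to 6.47 to 7.05 TPM (log2 fold change 1.27, adjusted p = 7.5e-05). Sesn2, a stress-induced regulator of growth, Phlda3, an inhibitor of Akt signaling, and Bbc3, a pro-apoptotic member of the Bcl-2 family, rose with log2 fold changes of 1.23, 1.47 and 1.61.

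Myc, a driver of growth and cell cycle entry, fell from 35.5 to 39.3 TPM to 11.5 to 18.7 TPM (log2 fold change -1.25, adjusted p = 0.000437), and so did the mitotic entry kinase Wee1 with -1.44, the thymidine kinase gene Tk1 with -1.11, and the kinetochore gene Spc25 with -1.73. The cytokinesis gene Prc1, the factor Mybl1, the remodeller Hells and Hinfp, a regulator of histone H4 genes, rose by 1.36, 1.45, 1.11 and 1.06 on the log2 scale. Kif20a, Mycn and Nusap1 were not called, with log2 fold changes of 0.96, 0.78 and 0.86. As in the members, genes of the same step were found on both sides, and direction largely went with level. In Fgf18 f/f livers, Wee1, Tk1 and Spc25 were at 9.13 to 11.1, 2.94 to 3.97 and 1.56 to 1.81 TPM. Prc1, Mybl1, Hells and Hinfp were there at 0.0878 to 0.104, 0.111 to 0.277, 0.0363 to 0.154 and 0.708 to 0.822 TPM. Trp53 and Sesn2, however, rose from 2.596 to 3.02 and from 1.36 to 2.08 TPM.

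Some markers of the cells a liver holds were listed, and a listed gene is one that differed in the authors' comparison. The calls stand beside 41.6% of all listed genes called higher and 30.0% called lower. Fewer cells of a type and less RNA per cell cannot be told apart in whole liver. Of 8 hepatocyte markers 2 were listed, Cyp2e1 and Glul, and both were called lower. Their summed level was 2012 to 2287 TPM in Fgf18 f/f livers, against 597 to 831 TPM in Fgf18△HSC livers. The other hepatocyte markers, Alb, Apoa1, Ttr, Serpina1a, Cps1 and Cyp1a2, were not among the genes the authors kept. Of 10 stellate cell markers 8 were listed, at 2.76 to 4.20 TPM and 9.80 to 14.1 TPM, with 6 called higher. For sinusoidal endothelium, 3 of 8 were listed, at 11.9 to 14.4 TPM and 26.5 to 38.8 TPM, all called higher. Erythroid genes, 4 of 8 listed, were at 70.9 to 116 TPM and 396 to 539 TPM, and the 4 were called higher. None of the listed markers was at 0 in any liver.

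The immune lists had few listed markers, and their calls stand beside the same shares of all listed genes, 41.6% higher and 30.0% lower. Of the Kupffer cell or macrophage markers, 2 of 8 were listed, at 4.19 to 5.45 TPM and 13.95 to 19.5 TPM, with 1 called higher. Monocyte markers, 2 of 4 listed, were at 1.07 to 1.53 TPM and 4.01 to 12.02 TPM, both called higher. Of 11 neutrophil markers 4 were listed, at 13.0 to 15.4 TPM and 3.66 to 10.8 TPM, with 3 called lower and 1 higher. Among B or plasma cell markers 2 of 7 were listed, at 3.19 to 4.80 TPM and 9.96 to 15.6 TPM, both called higher, and none of 8 T or NK cell markers was listed. Cholangiocyte markers, 4 of 5 listed, were at 28.0 to 30.5 TPM and 50.1 to 76.6 TPM, with 2 called higher and 1 lower. The part of these markers in the differences of the members was not tested.

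**Figure D5:**
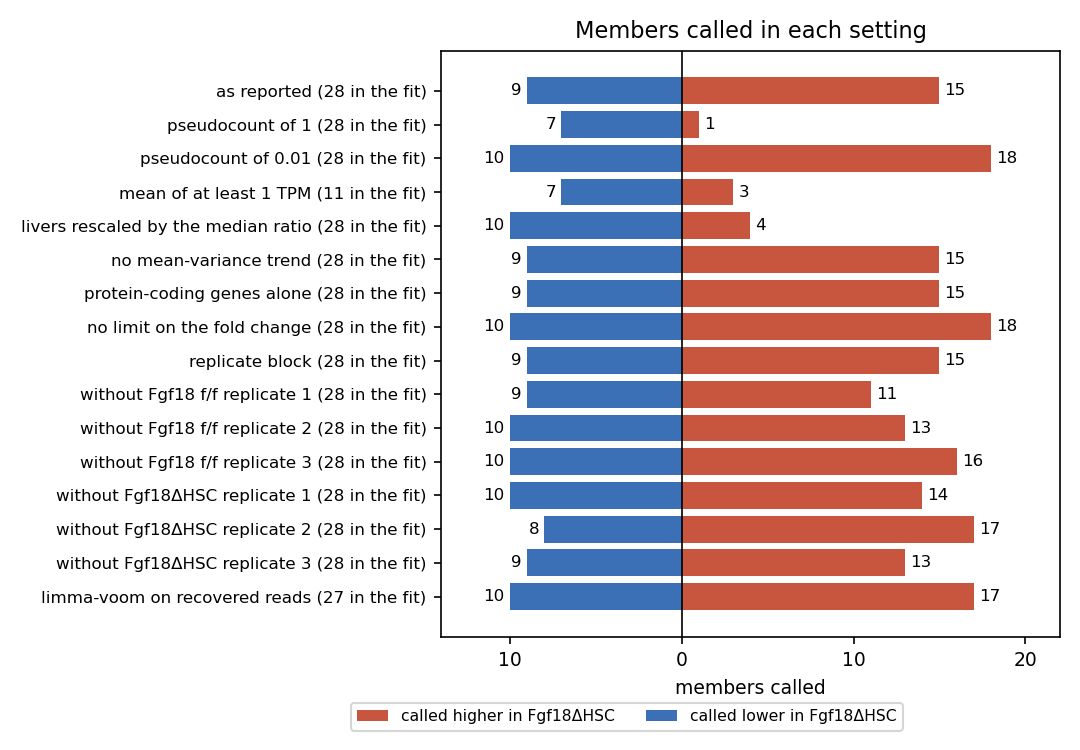
Bars give the number of members called higher (red, to the right) and lower (blue, to the left) in Fgf18△HSC livers under each setting, with the number of members in the fit in brackets. The lower calls stay between 7 and 10, and the higher calls range from 1 with a pseudocount of 1 to 18 with a pseudocount of 0.01 or with no limit on the fold change. Of all genes, 8.31%, 62.3% and 62.6% were called higher in these settings.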

How the data were processed

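One table of 3201 genes for 6 livers was used. Per the methods and the submitters' processing notes, the authors extracted RNA with Trizol, made stranded mRNA libraries, trimmed reads with cutadapt 2.5, mapped them to GRCm38 (mm10) with HISAT2 2.1.0, assigned them to genes with featureCounts 1.6.3 and ran DESeq2. TPM was what the authors deposited, 1 value per gene and liver, although the table does not name this unit. The values were taken as TPM, because TPM times exon length gave whole reads (within 0.02 of a read, under 5000 reads) in all 6 livers for 2940 genes, 27 of the 28 members among them, and in 92.2 to 93.1% of the values of a liver. Cdkn2b was the exception. Library totals were unknown. Lengths were taken from GENCODE M21. The authors' columns of fold changes, p-values and direction were not used. All listed genes had an absolute log2 fold change of at least 1.00 and a p-value of at most 0.0500 in those columns, and 575 had an adjusted p of at least 0.05.

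The groups were taken from the labels, with 3 livers each. limma 3.58.1 in R 4.3.3, with a mean-variance trend and no block, was run on log2(TPM + 0.1) over all 3201 genes, in place of a count test. A run on simulated data, in which most genes did not differ, does not give the error rate for genes selected for a difference. Alternatives were other pseudocounts, a minimum level, rescaled livers, no trend, protein-coding genes alone, no fold limit, a replicate block, each liver left out and, chosen after seeing the data, limma-voom on the recovered reads. Every member was named. Levels in every liver were given for members whose mean in either group reached 1 TPM, or that had a log2 fold change of at least 2 in size, and for proliferation markers. Intervals are exact 95% intervals for a ratio of read counts and cover counting error only. Motifs were searched with Python 3.11.15. The members and gene lists were chosen with earlier results of these data known. Fgf18 itself is not analysed here. The values of 1 gene of the list of other cell cycle genes are not reported here. Reads from genes that overlap on opposite strands may be shared, since the strand setting of the counting was not stated.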

Additional observations from a re-analysis of the deposited data

How the results depend on the processing

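No member changed its direction under any setting run. Since members were listed because they differed in these same livers, a kept direction is no independent evidence. With rescaled livers, Cdc25a, Cdca7 and Cdkn2aip kept theirs only at log2 fold changes of 0.18, 0.16 and 0.17. Gadd45a, Gadd45b, Gadd45g, Plk3, E2f8, Mcm10 and Hist1h1c kept their calls under all settings. The 9 members called lower became 7 to 10. Of all genes in a fit, 17.7% were called lower with a pseudocount of 1 and 55.3% with a mean of at least 1 TPM. The 15 called higher became 1 with a pseudocount of 1 (Cdk2ap2), 3 among the 11 members with a mean of at least 1 TPM (Hist1h4h, Cdk2ap2 and Cdkn2aip), and 4 when livers were rescaled (Cdkn2b, Cdc6, Cdc20 and Hist1h3e). Of all genes in these fits, 8.31%, 36.7% and 11% were called higher, against 41.6% in the main fit. The pseudocount of 1 shrinks the fold of low genes and moved the median log2 fold change of all genes by -0.47. With each liver left out in turn, 11 to 17 were called higher and 8 to 10 lower. The shares of all genes were 37.6 to 43% and 28.3 to 30.5%. limma-voom on recovered reads, added after seeing the data, called 17 of 27 higher and 10 lower, beside 64.3% and 32.6% of all genes. The deviations of same-numbered livers correlated with r of 0.0574, 0.00597 and 0.0307 across genes, and those of differently numbered livers with r of -0.0922 to 0.0580. These values show no pairing by number but cannot exclude it. A replicate block in the model gave 15 higher and 9 lower calls, as without it, beside 41.8% and 30.1% of all genes. Depth limits the members under 50 reads.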
